A study of Mus musculus with 22 samples.

Results

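Core promoters were taken as the autosomal CpG positions within 500 bp of a transcription start site (TSS) of a curated protein-coding RefSeq transcript, measured in all 22 samples. One region was formed per gene, and a gene entered with 5 or more such positions. This gave 12213 core promoters of 20021 autosomal protein-coding genes, while 6848 genes had 0 positions in the window and 960 had 1 to 4. At the boundary, 258 core promoters had exactly 5 positions and 296 genes were left out with exactly 4. The 12213 regions held 508668 of the 1115690 positions common to all samples (45.6%), with a median of 37 positions per promoter (range 5 to 278). Positions are single cytosines, so both strands of a CpG can each contribute one, and 1722 promoters shared at least 1 position with the promoter of another gene.

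DNA methylation was profiled with enhanced reduced representation bisulfite sequencing (ERRBS), which reads the methylation of CpG-rich fragments, in bulk mammary tumors or tissue of female MMTV-PyMT mice and in normal mammary glands of age-matched FVB controls. MMTV-PyMT mice are heterozygous F1 animals on the FVB/N background that carry the polyoma middle T antigen under the mouse mammary tumor virus promoter, which is active mainly in mammary epithelium. PyMT samples were taken at week 6 (hyperplasia, 2 mice), week 8 (adenoma or mammary intraepithelial neoplasia, adenoma/MIN, 3 mice), week 10 (early carcinoma, 3 mice) and week 12 (late carcinoma, 2 mice), and FVB glands without the transgene at the same weeks (3 mice each). Groups of 2 are the mice left after outlier samples had been removed by the authors. No cells were sorted, so in this bulk tissue a change in the mix of cell types and a change of methylation within a cell type cannot be told apart.

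Most CpGs of the mammalian genome are methylated, whereas CpG-rich promoters, the CpG islands, are usually kept free of methylation whether or not the gene is expressed. CpG-poor promoters are often methylated in cells that do not use the gene. In cancers, loss of methylation across the genome is known to go together with gain of methylation at a subset of CpG islands.

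In FVB glands the core promoters were close to unmethylated. The mean over the 12213 promoters was 3.27% ± 0.0405 (SD, n = 12), the median promoter of a gland lay between 0.143% and 0.306%, and 10588 promoters (86.69%) stayed under 5% in every one of the 22 samples. Promoters were also classed by sequence as high, intermediate or low CpG (9757, 2090 and 366 promoters), a high CpG promoter holding a 500-bp window with a CpG observed-to-expected ratio above 0.75 and a GC content above 55%, and a low CpG promoter holding no window with a ratio above 0.48. The mean level in FVB glands was 0.921% ± 0.0424 in high CpG, 7.49% ± 0.0735 in intermediate CpG and 41.8% ± 0.488 in low CpG promoters (SD, n = 12 each). Coverage was deep, with a median over promoters of 79.8 reads per position and 66.5 to 99.1 reads per position in a sample. The 2 hyperplasia samples lay 10 or more points apart at 112 promoters and the 2 late carcinoma samples at 93. In groups of 3 mice, a sample lay that far from the mean of the other 2 at 21 to 72 promoters. The group sizes are not directly comparable, since 1 mouse varies more than a mean of 2.

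The PyMT samples differed from their controls at 408 core promoters (3.34%) at 1 or more stages, in the test described further on. The strongest gains included Adam2 (a sperm surface protein of the fertilin complex), Mab21l1 (a gene of eye development) and Pnma1 (a neuronal antigen derived from a retrotransposon Gag gene). The strongest losses included Cldn14 (a tight junction claudin), Sec16b (a protein of endoplasmic reticulum exit sites) and Bglap3 (a relative of osteocalcin). Their sequences are given because these promoters carry the largest gains and losses called at every stage for which at least 3 measured CpGs fell within 300 bases near the start site. Each is 300 bases of GRCm38.p6 (mm10) from the reference genome, 5′ to 3′ on the strand of the gene, with the CpGs that were measured in all samples in capitals. The Adam2 (chr14:66077720-66078019, minus strand), Mab21l1 (chr3:55782260-55782559, plus), Pnma1 (chr12:84148440-84148739, minus), Cldn14 (chr16:94008788-94009087, minus) and Sec16b (chr1:157525920-157526219, plus) stretches run from 250 bases before to 49 bases after the TSS, and the Bglap3 stretch (chr3:88372763-88373062, minus) lies upstream of its TSS, from -321 to -22.
Adam2: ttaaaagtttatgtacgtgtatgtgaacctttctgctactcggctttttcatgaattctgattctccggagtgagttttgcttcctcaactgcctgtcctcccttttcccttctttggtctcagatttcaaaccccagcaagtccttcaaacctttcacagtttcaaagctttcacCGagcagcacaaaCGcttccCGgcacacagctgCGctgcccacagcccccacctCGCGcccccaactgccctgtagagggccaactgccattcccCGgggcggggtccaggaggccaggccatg
Mab21l1: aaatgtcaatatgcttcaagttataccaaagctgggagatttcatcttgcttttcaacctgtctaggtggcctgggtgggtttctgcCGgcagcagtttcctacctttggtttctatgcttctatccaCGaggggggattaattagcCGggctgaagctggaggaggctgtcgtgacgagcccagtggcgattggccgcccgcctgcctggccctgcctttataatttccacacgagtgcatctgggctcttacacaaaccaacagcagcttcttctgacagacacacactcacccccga
Pnma1: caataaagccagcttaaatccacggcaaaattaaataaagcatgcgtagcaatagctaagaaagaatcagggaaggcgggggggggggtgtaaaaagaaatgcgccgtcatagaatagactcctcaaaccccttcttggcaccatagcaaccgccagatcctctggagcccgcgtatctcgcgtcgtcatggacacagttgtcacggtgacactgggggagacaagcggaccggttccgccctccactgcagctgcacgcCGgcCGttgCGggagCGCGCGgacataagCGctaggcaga
Cldn14: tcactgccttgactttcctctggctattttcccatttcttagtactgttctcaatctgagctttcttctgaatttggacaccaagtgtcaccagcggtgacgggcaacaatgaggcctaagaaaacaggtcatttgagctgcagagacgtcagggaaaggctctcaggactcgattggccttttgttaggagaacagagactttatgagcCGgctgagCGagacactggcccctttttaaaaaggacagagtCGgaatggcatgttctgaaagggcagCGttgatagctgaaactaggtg
Sec16b: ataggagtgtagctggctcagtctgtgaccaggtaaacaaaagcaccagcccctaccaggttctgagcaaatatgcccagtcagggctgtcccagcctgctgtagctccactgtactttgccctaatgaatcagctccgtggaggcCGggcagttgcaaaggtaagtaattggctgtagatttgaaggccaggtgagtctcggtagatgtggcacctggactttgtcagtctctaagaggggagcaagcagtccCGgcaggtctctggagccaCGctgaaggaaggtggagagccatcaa
Bglap3: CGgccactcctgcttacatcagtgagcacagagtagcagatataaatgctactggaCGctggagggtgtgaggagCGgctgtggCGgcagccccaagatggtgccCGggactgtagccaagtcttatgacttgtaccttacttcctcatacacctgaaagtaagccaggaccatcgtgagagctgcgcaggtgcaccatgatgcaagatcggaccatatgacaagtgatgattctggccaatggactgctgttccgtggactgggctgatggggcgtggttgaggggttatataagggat
The stretches of the gains held 11 CpGs at Adam2, 10 at Mab21l1 and 23 at Pnma1, of which 7, 3 and 7 were measured. Those of the losses held 8 at Cldn14, 5 at Sec16b and 10 at Bglap3, of which 4, 3 and 5 were measured. Over all core promoters the same 300 bases held a median of 23 CpGs.

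How many core promoters differed from age-matched controls at each stage was tested with limma on the mean methylation of each promoter in each mouse, with Benjamini-Hochberg correction over 46581 regions (core promoters, the flanks at 500 to 2000 bp and 1-kb bins farther away). A promoter was called at an adjusted p (q) under 0.05 and a difference of at least 10 points, that is, percentage points of methylation. At hyperplasia 61 promoters were higher (0.499%) and 83 lower (0.68%) in PyMT, and at adenoma/MIN 104 were higher (0.852%) and 109 lower (0.892%). At early carcinoma 154 were higher (1.26%) and 124 lower (1.02%), and at late carcinoma 199 were higher (1.63%) and 125 lower (1.02%). With 10 or more positions per promoter, 31 were higher and 25 lower at hyperplasia and 56 and 35 at adenoma/MIN, so the order of gains and losses at these stages depended on the setting. The hyperplasia counts rested on 2 mice, and without the first of them (replicate 1) they were 24 and 44.

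**Figure D1:**
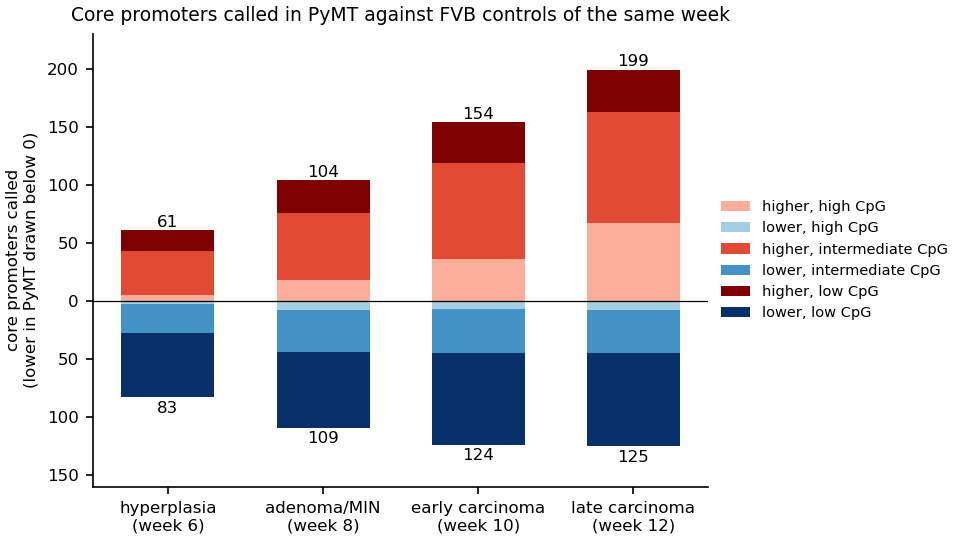
Number of core promoters called higher (above 0) and lower (below 0) in PyMT than in FVB samples at each stage, split by CpG class. Gains at high CpG promoters number 5, 18, 36 and 67 from hyperplasia to late carcinoma, while losses come mostly from low CpG promoters (55, 65, 79 and 80).

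These shares were smaller than those over all regions. Over all 46581 regions, 2.98%, 4.52%, 6.01% and 6.18% were higher in PyMT from hyperplasia to late carcinoma and 7.92%, 10.3%, 12.6% and 14% were lower. Among the 1-kb bins, 2465 were higher and 6041 lower at late carcinoma, 0.408 gains per loss, against 1.59 gains per loss among core promoters and 0.604 among the flanks. Averaged over the 4 stages, 124 core promoters were higher (1.02%) and 110 lower (0.901%), against 5.62% and 12% of all regions. These ratios and shares are descriptions of the counts and were not tested against each other. They also depend on the starting level. At late carcinoma, 11277 core promoters lay under 5% in controls of the other weeks, where a loss of 10 points is not possible. The 1-kb bins averaged 62.6% in FVB. Among core promoters at 5% to 20%, 61 were higher and 9 lower. At 20% to 60% these were 55 and 59, and at 60% or more 19 and 57.

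The calls carried over from stage to stage, in separate mice with separate controls. Of the 61 promoters higher at hyperplasia, 60 were also above the controls at late carcinoma and 52 were called there, with a median difference of 17.6 points at hyperplasia and 31.3 points at late carcinoma. Of the 83 promoters lower at hyperplasia, 80 lay below the controls at late carcinoma and 67 were called, with medians of -19.2 and -22.1 points. In all, 239 promoters were called higher at 1 or more stages (1.96%) and 170 lower (1.39%), while 49 were higher (0.401%) and 64 lower (0.524%) at all 4 stages. Another 71 promoters were called higher at late carcinoma alone, and 61 of them already had a difference above 0 at hyperplasia, with a median over the 71 of 2.97 points there and 11.9 at late carcinoma. A single promoter, that of Il12a (a subunit of interleukin-12, singled out after its values were seen), was called in both directions, at 15.8 points at hyperplasia and -10.3 points at adenoma/MIN.

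Since the stage calls are set by thresholds, the overlap of the samples was also counted. All 10 PyMT mice lay above all 12 FVB mice at 417 promoters (3.41%) and below them at 172 (1.41%). This held for 46 of the 49 promoters higher at all stages and for 52 of the 64 lower at all stages. Those promoters were called in these same mice, so their separation is in part set by the choice.

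Gains and losses were also counted by CpG class. At 1 or more stages, 75 high CpG promoters were higher and 10 lower, 0.769% and 0.102% of that class. Among intermediate CpG promoters 114 were higher and 60 lower (5.45% and 2.87%), and among low CpG promoters 50 were higher and 100 lower (13.7% and 27.3%). The promoters that gained had a median of 14 measured positions and those that lost a median of 8, against 37 for all, and 87 of 239 and 109 of 170 had fewer than 10 positions (1160 of 12213 overall). Their means therefore rested on fewer sites than those of the typical promoter.

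The starting level was read from controls of the other weeks, which did not enter the stage's own difference. Of the 199 gains at late carcinoma, 64 (32.2%) began under 5%, 61 between 5% and 20%, 55 between 20% and 60% and 19 at 60% or more. At hyperplasia 6 of 61 gains (9.84%) began under 5%. Because about 11280 promoters start under 5%, the 64 gains were 0.568% of that group, whereas 14.6% of promoters at 5% to 20% gained at late carcinoma. No promoter that began under 5% was called lower, where a loss of 10 points is not possible.

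The average over all core promoters was then compared per mouse by exact permutation of the strain labels within each week (two-sided, 40000 arrangements, smallest p 2.5e-05). Mean methylation was 3.42% ± 0.159 in PyMT (SD, n = 10) and 3.27% ± 0.0405 in FVB (SD, n = 12), a mean within-week difference of 0.151 points (exact p = 0.002). By week the difference was -0.060 points at hyperplasia, 0.133 at adenoma/MIN, 0.209 at early carcinoma and 0.324 at late carcinoma, and PyMT and FVB mice did not overlap at 3 of the 4 weeks. The median over promoters in place of the mean gave a difference of the other sign, -0.00548 points, which did not pass (exact p = 0.809).

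**Figure D2:**
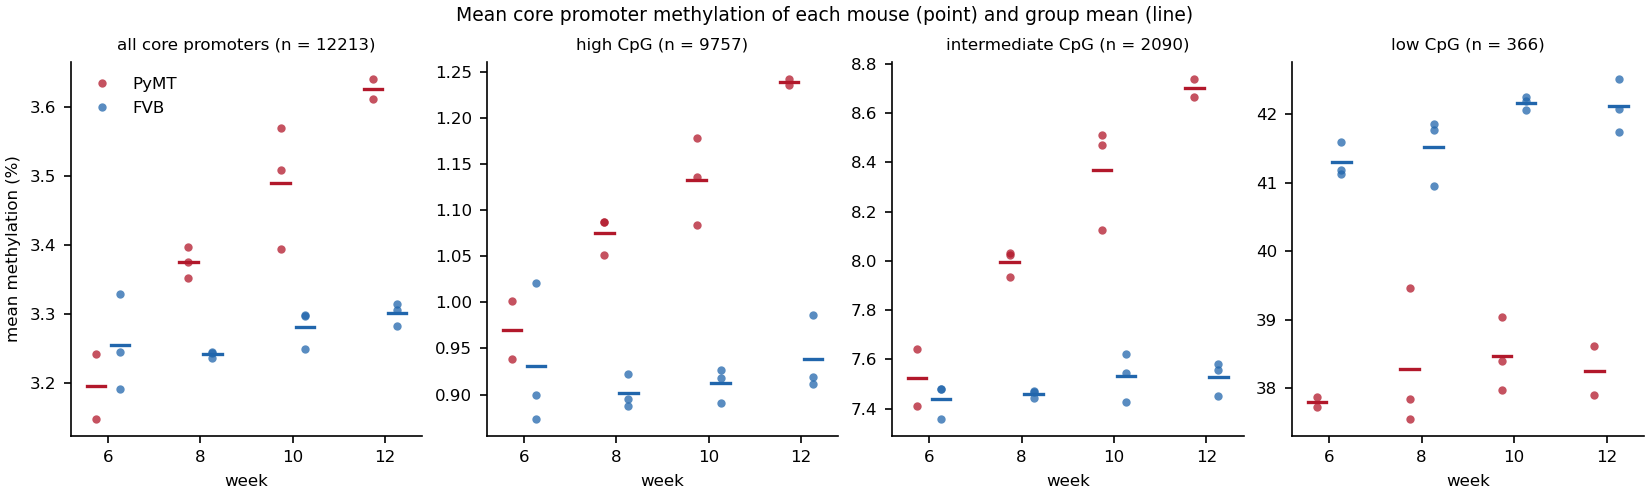
Mean methylation (%) of each mouse by week over all core promoters and over high, intermediate and low CpG promoters, with lines at group means; each panel has its own axis, which does not start at 0. PyMT samples reach 3.15% to 3.64% over all promoters against 3.19% to 3.33% in FVB, and lie below every FVB gland of the same week for low CpG promoters.

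By class, high CpG promoters were 0.183 points higher in PyMT and intermediate CpG promoters 0.658 points higher, whereas low CpG promoters were lower, at -3.58 points (each exact p adjusted over 13 classes and distance bins, 0.000162). With the median over genes the high CpG difference turned to -0.00697 points, which did not pass (exact p = 0.738). High CpG promoters averaged 0.970% ± 0.0442 at hyperplasia (SD, n = 2), 1.08% ± 0.0208 at adenoma/MIN (n = 3), 1.13% ± 0.0478 at early carcinoma (n = 3) and 1.24% ± 0.00431 at late carcinoma (n = 2), against group means of 0.902% to 0.939% in FVB. The low CpG difference was already -3.51 points at hyperplasia and -3.86 at late carcinoma. Within the core promoter, all 10 distance bins of 100 bp were higher in PyMT, by 0.112 to 0.242 points (adjusted exact p 0.000162 to 0.00652). The smallest difference was in the bin from -400 to -301 and the largest in that from 300 to 399 bases downstream.

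The number of core promoters under 5% was counted in each sample. FVB glands had 11261 to 11300 such promoters, and PyMT samples had 11273 ± 28.3 at hyperplasia (SD, n = 2), 11172 ± 24.6 at adenoma/MIN (n = 3), 11072 ± 47.2 at early carcinoma (n = 3) and 10979 ± 9.19 at late carcinoma (n = 2). PyMT samples of the 3 later weeks did not overlap the controls. The mean within-week difference was -148 promoters (exact p = 0.0001). The number at 50% or more differed by 3.96 promoters (exact p = 0.117), which did not pass.

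Whether core promoters shifted unlike the flanks of the same genes was tested in the 5176 genes that had both. In these genes the core promoter was 0.267 points higher in PyMT (exact p = 0.0001) and the flank at 500 to 2000 bp was lower, at -0.505 points (exact p = 2.5e-05). Core minus flank was thus 0.772 points higher in PyMT (exact p = 2.5e-05), with no overlap of PyMT and FVB mice at any of the 4 weeks. With the median core level minus the median flank level in place of the means, the direction turned, to -0.141 points (exact p = 0.00158). The median over genes of core minus flank within a gene was not computed. The 1-kb bins over 2 kb from any TSS differed by -2.93 points in PyMT (exact p = 2.5e-05).

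Over the mean of the stages, 40 of these genes were called higher in the core and 13 of the 40 also in the flank, while 28 were lower in the core and 11 of the 28 also in the flank. The flanks of these genes were called higher in 1.95% and lower in 4.42%, against 0.773% and 0.541% of their core promoters. Core and flank were both called, in opposite directions, in 3 genes. Neurl3 (an E3 ubiquitin ligase of the neuralized family) gained 28.3 ± 2.91 points in the core (SE, q = 3.58e-07) and had a flank difference of -37.6 ± 2.68 points (q = 5.11e-09). Gm128 had 12.2 and -21.8 points, and Hpn (the transmembrane serine protease hepsin) had -11.0 points in the core and 11.5 in the flank.

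The named gains were the 12 promoters with the largest mean difference among those higher at all 4 stages, of which 11 were intermediate CpG and 1 high CpG. Beside Adam2, Mab21l1 and Pnma1 these were Mdk (the growth factor midkine, 41.0 points), Cox4i2 (an isoform of a cytochrome c oxidase subunit, 37.0), Dpep1 (a membrane dipeptidase, 35.1), Lyl1 (a hematopoietic helix-loop-helix factor, 35.0), Esam (an endothelial adhesion molecule, 35.0), Iffo1 (an intermediate filament family protein, 32.4), Cpt1b (the muscle carnitine palmitoyltransferase, 32.3), Fam189b (32.3) and L1td1 (a retrotransposon-derived RNA-binding protein, 32.1). The SE of these means was 1.09 to 3.41 points, and their q ran from 7.81e-12 to 2.31e-08 in limma. PyMT and FVB mice did not overlap at any of the 12, and at all 12 the difference was larger at late carcinoma than at hyperplasia. The step was small at Mab21l1, from 44.3 to 46.4 points (SE 7.20 each). Of the 12, Pnma1, Iffo1, Cpt1b and Fam189b alone had a called rise of the difference from weeks 6 and 8 to weeks 10 and 12.

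At Adam2 the 10 measured positions lie between 73 bases before and 22 bases after the TSS, that is, the capitals in the sequence above. Methylation was 49.7% and 52.0% at hyperplasia, 59.1%, 48.5% and 65.4% at adenoma/MIN, 71.0%, 63.6% and 56.0% at early carcinoma and 73.9% and 66.9% at late carcinoma. The FVB glands ran from 8.45% to 20.4% with a median of 14.02%. The lowest PyMT sample was above the highest control, and at each of the 10 positions all PyMT mice lay above all FVB mice, with position differences of 29.3 to 56.2 points. The flank of Adam2 went slightly the other way, at -2.59 ± 0.998 points (SE, q = 0.0416 in limma).

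Pnma1 was the high CpG promoter of the group and had the most positions, 55, which lie 10 to 465 bases downstream of the TSS. Its levels were 36.5% and 34.1% at hyperplasia, 37.9%, 39.4% and 52.5% at adenoma/MIN, 62.3%, 51.7% and 58.9% at early carcinoma and 62.1% and 56.4% at late carcinoma. In FVB glands they were 4.45% to 9.58%, with a median of 5.66%. All PyMT mice were above all FVB mice at 50 of the 55 positions.

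Mab21l1 already carried methylation in the normal gland, from 17.01% to 45.1% (median 24.3%). PyMT levels were 80.7% and 71.0% at hyperplasia, 58.9%, 69.4% and 76.2% at adenoma/MIN, 71.3%, 73.7% and 69.3% at early carcinoma and 78.0% and 66.9% at late carcinoma, with no order by stage. The flank was measured at 6 of the named gains and was called higher at 3 of them, Mab21l1 (48.1 ± 2.81 points, SE, q = 6.01e-10), Iffo1 (34.3) and Dpep1 (11.3 ± 1.12, q = 2.26e-07 in limma). The flanks of Cpt1b (9.10 ± 1.20 points, q = 6.00e-06) and Fam189b (2.77, q = 0.0257) were higher but under the 10-point limit, and that of Adam2 is given above.

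**Figure D3:**
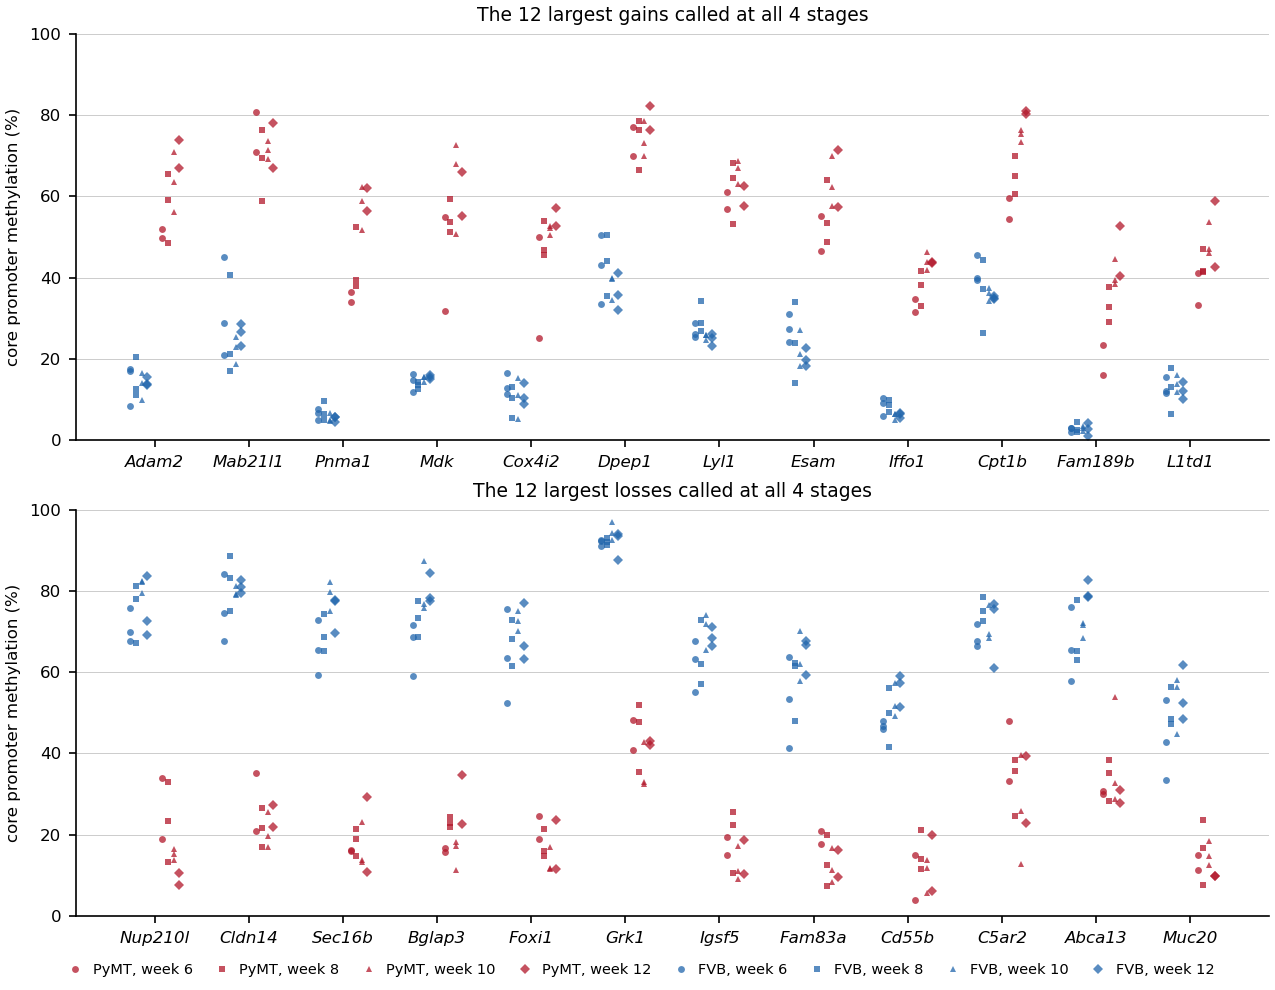
Methylation (%) in every mouse at the 12 named gains (top) and the 12 named losses (bottom), PyMT and FVB mice in separate colours. In each of the 24 promoters the PyMT points lie wholly on one side of the FVB points.

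The 12 named losses, chosen in the same way among promoters lower at all 4 stages, were CpG-poor, with 10 low and 2 intermediate CpG promoters and 5 to 11 positions each. They were Nup210l (a nucleoporin relative found in testis, -57.3 points), Cldn14 (-55.8), Sec16b (-54.5), Bglap3 (-54.0), Foxi1 (a forkhead factor of ionocytes, -50.7), Grk1 (rhodopsin kinase, -50.6), Igsf5 (a junctional immunoglobulin protein, -50.3), Fam83a (a protein of growth factor signaling, -45.1), Cd55b (a complement regulator, -39.1), C5ar2 (a complement receptor, -39.0), Abca13 (an ABC transporter, -38.4) and Muc20 (a mucin, -36.7). The SE was 1.86 to 3.37 points and q 1.32e-11 to 4.74e-08 in limma, and no promoter overlapped between strains. As with the gains, the difference was larger at late carcinoma than at hyperplasia at all 12. The step was small at Bglap3 (-50.1 to -51.3 points, SE 4.59 each) and Grk1 (-47.6 to -49.2, SE 3.92 each). The change of the difference from weeks 6 and 8 to weeks 10 and 12 was not called at any of these losses. Its q in limma ran from 0.131 at Nup210l to 0.817 at Cldn14. Both sets were picked for large differences, so their separation is in part set by the choice.

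At Cldn14 the 6 positions lie from 40 bases before to 61 bases after the TSS. Methylation fell from an FVB range of 67.8% to 88.6% (median 80.2%) to 21.0% and 35.3% at hyperplasia, 26.6%, 21.6% and 17.1% at adenoma/MIN, 16.9%, 25.7% and 19.6% at early carcinoma and 21.9% and 27.4% at late carcinoma. Each of the 6 positions separated the strains, by -61.1 to -53.5 points. The difference was -47.4 points at hyperplasia and -56.3 at late carcinoma.

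Sec16b went from 59.4% to 82.2% in FVB (median 73.6%) to 16.2% and 16.1% at hyperplasia, 18.9%, 21.4% and 14.9% at adenoma/MIN, 13.2%, 23.1% and 13.8% at early carcinoma and 10.8% and 29.4% at late carcinoma. Bglap3, whose 5 positions all lie 215 to 321 bases upstream of the TSS, had FVB levels of 59.0% to 87.3% (median 76.3%). Its PyMT levels were 15.8% and 16.7% at hyperplasia, 21.8%, 24.4% and 22.9% at adenoma/MIN, 11.4%, 18.2% and 17.2% at early carcinoma and 22.6% and 34.8% at late carcinoma. Neither promoter showed an order by stage.

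Nup210l had the largest loss, with its lowest levels at late carcinoma. Its PyMT levels were 34.1% and 19.0% at hyperplasia, 23.4%, 32.9% and 13.3% at adenoma/MIN, 13.9%, 15.1% and 16.4% at early carcinoma and 10.7% and 7.62% at late carcinoma, against 67.1% to 83.8% (median 77.0%) in FVB. The change of its difference from premalignant to malignant weeks was -17.7 ± 5.48 points (SE, q = 0.131 in limma), which did not pass.

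**Figure D4:**
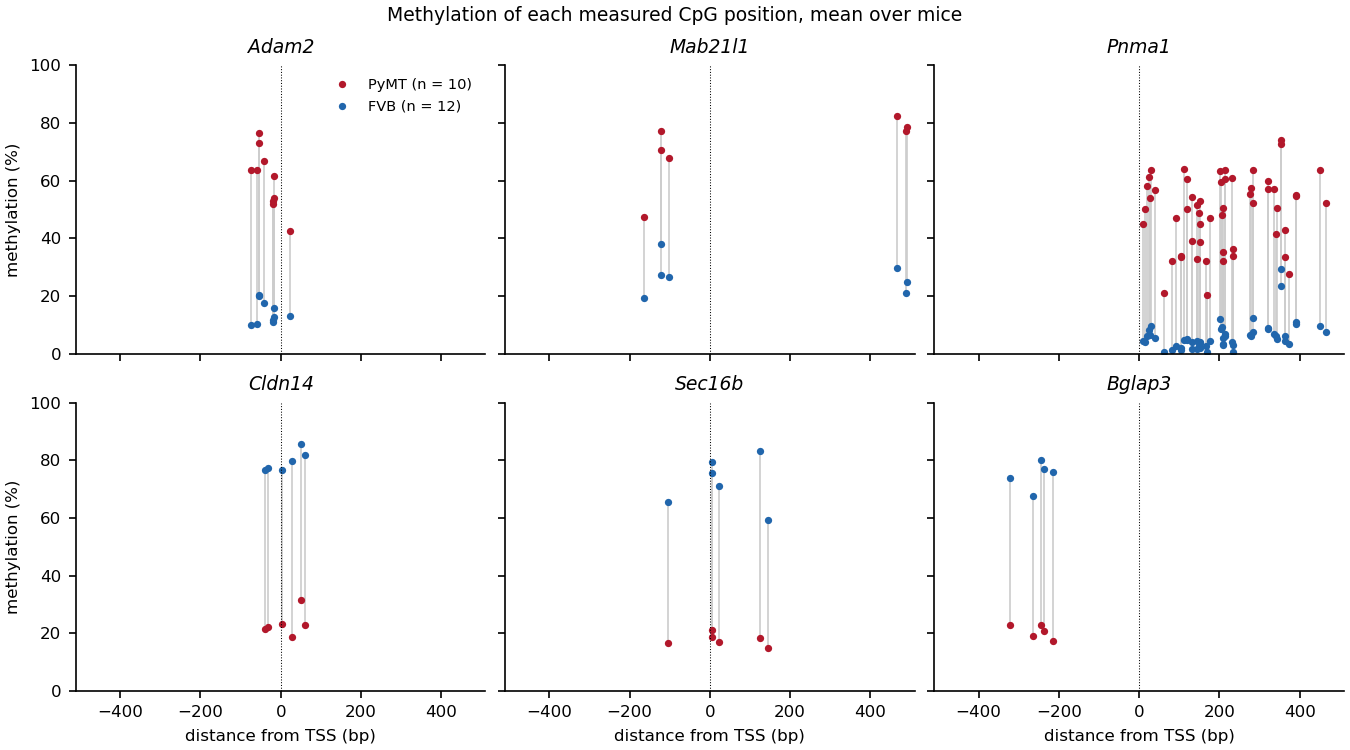
Mean methylation (%) at each measured position against its distance from the TSS (bases, on the strand of the gene) for the 6 promoters whose sequences are given, PyMT and FVB mice apart. At Adam2 the difference spans 29.3 to 56.2 points over the 10 positions and at Cldn14 -61.1 to -53.5 points over the 6.

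Which core promoters moved between the premalignant weeks (6 and 8) and the malignant weeks (10 and 12) was tested as a change of the PyMT minus FVB difference, which subtracts what happened between the same weeks in FVB glands. The change was called as a rise at 31 promoters (0.254%) and as a fall at 2 (0.0164%), against 161 rises (0.346%) and 123 falls (0.264%) over all regions. The median difference of the 31 went from 10.3 points at hyperplasia through 16.1 and 26.0 to 32.5 at late carcinoma. They were chosen for a rise between these weeks, so this climb is set by the choice. At hyperplasia 13 of them were already called higher. In PyMT samples alone 42 promoters were higher (0.344%) and 4 lower (0.0328%) in the malignant weeks, against 0.73% and 0.421% of all regions. Between week 6 and week 12 alone the difference rose at 56 promoters (0.459%) and fell at 0 by limma, against 0.464% and 0.481% of all regions, with 1200 core promoters at an unadjusted p under 0.05. In FVB glands alone 0 promoters were called between these weeks in either direction by limma, with 473 at an unadjusted p under 0.05, and 0 between week 6 and week 12, with 581. The calls depended on the scale, since on a logit scale 5 rises and 0 falls were called, and without 1 sample the falls numbered 0 to 4.

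Rgs22 (a regulator of G protein signaling expressed in testis) had the largest change, 26.4 ± 4.26 points (SE, q = 0.00452 in limma). Its levels were 15.3% and 17.01% at hyperplasia, 34.2%, 35.1% and 45.1% at adenoma/MIN, 43.6%, 42.9% and 55.7% at early carcinoma and 57.2% and 54.1% at late carcinoma, and 1.56% to 16.0% (median 4.01%) in FVB. Pnma1 (20.5 ± 3.59 points, q = 0.00787) and Cpt1b (20.02 ± 3.85, q = 0.0136) rose as well. The calls of these 3 promoters held when any of the 22 samples was left out. With a replicate block all 3 were lost (q = 0.0759 at Rgs22, 0.131 at Pnma1 and 0.0954 at Cpt1b), and on a logit scale Rgs22 (q = 0.188) and Pnma1 (q = 0.0555) were lost.

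Npb (neuropeptide B) had a change of 21.1 ± 5.12 points (q = 0.0461), and this call was lost in 18 of the 22 fits without 1 sample. The falls were Foxs1 (a forkhead factor, -20.3 ± 4.48 points, q = 0.0298), lost in 10 of the 22, and Slc41a3 (a magnesium transporter, -12.97 ± 3.09, q = 0.0433), lost in 17. At Foxs1 the PyMT levels were 72.5% and 58.7% at hyperplasia, 64.2%, 53.8% and 51.7% at adenoma/MIN, 41.4%, 48.0% and 34.5% at early carcinoma and 43.5% and 41.4% at late carcinoma, while FVB glands stayed at 71.3% to 82.4%.

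The imprinted gene Snrpn and its partner Snurf, which share the same 6 positions, also had a called change, 25.6 ± 5.83 points (q = 0.0347). FVB levels were 36.3% to 65.7% in weeks 6 and 8 and 30.9% to 43.0% in weeks 10 and 12, and PyMT levels were 24.4% to 35.2% in weeks 6 and 8 and 37.9% to 45.5% in weeks 10 and 12. The difference was called at adenoma/MIN alone (-25.5 points), and the change was lost in 13 of the 22 fits without 1 sample.

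**Figure D5:**
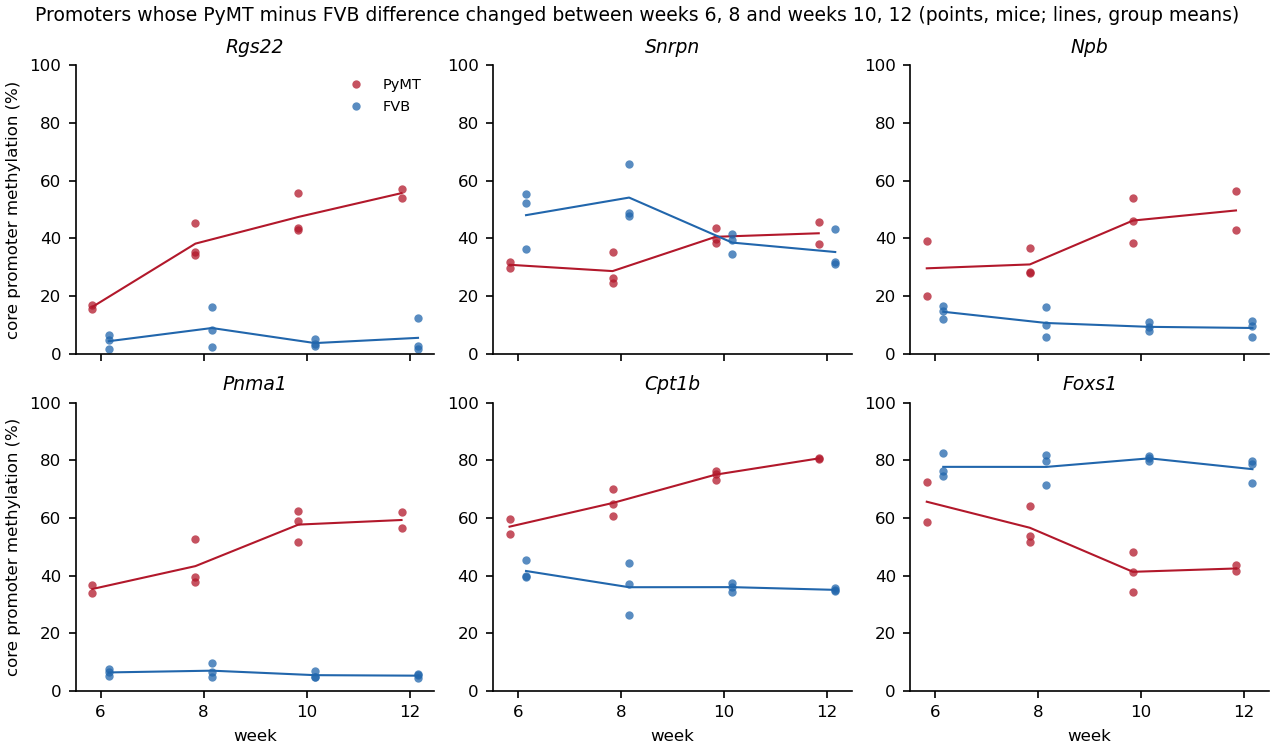
Methylation (%) by week in every mouse at the promoters named for a change of the PyMT minus FVB difference between premalignant and malignant weeks. At Rgs22 the PyMT points run from 15.3% to 57.2% while FVB points stay at or below 16.0%, and at Snrpn the FVB points themselves are lower at weeks 10 and 12.

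Over whole promoters, mean methylation was 0.241 points higher in malignant than premalignant PyMT samples (exact p = 0.0159, 252 arrangements), and 0.0428 points higher at the same weeks in FVB (exact p = 0.0584, 924 arrangements). The difference of these changes was 0.199 points (exact p = 0.0489, 232848 arrangements). With the median over promoters the PyMT change turned to -0.00928 points (exact p = 0.587) and the difference of the changes to -0.00841 (exact p = 0.80). With the mean, that difference passed narrowly and was lost, with p of 0.0528 to 0.0892, without any 1 of 11 samples, namely all PyMT samples except replicate 1 of week 8 and replicate 3 of week 10, or FVB replicate 1 of week 6, replicate 1 of week 10 or replicate 2 of week 12. For the number of promoters under 5% the difference of the changes was -173 promoters (exact p = 0.00856).

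The promoters of cell type markers were read next, because the samples are mixed tissue. Marker expression was not measured here, and many markers lacked 5 measured positions (10 of 19 adipocyte, 14 of 22 luminal, 4 of 11 basal, 7 of 17 endothelial, 3 of 20 leukocyte and 3 of 12 fibroblast markers could be read). The mean over the luminal list was 1.62% to 2.93% in PyMT samples and 4.72% to 7.25% in FVB. The median difference of its members was smaller, at -1.08 points. In 13 of the 14 the mean difference was below 0, against 6127 of 12213 core promoters, and 2 were called lower at 1 or more stages (14.3% against 1.39% of all). Elf5, a factor of the luminal alveolar lineage, fell by 26.6 points (SE 1.83, q = 3.45e-09), from 24.7% to 48.4% in FVB to 3.12% to 16.2% in PyMT. Csn3, which encodes kappa-casein, fell by 11.1 points (SE 1.20, q = 6.59e-07).

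Among the lists of the other cell types, the basal and adipocyte lists each held calls in both directions. The endothelial list averaged 9.46% to 13.7% in PyMT and 3.97% to 6.48% in FVB. Its median member difference was 1.82 points, with 2 of the 7 below 0, against 35.0 points at Esam. Esam was the 1 called of 7 (14.3%, against 1.96% of all core promoters called higher at any stage). The basal list averaged 23.9% to 32.9% in PyMT and 19.6% to 25.9% in FVB, but 2 of its 4 members lay below 0 and their median difference was -0.662 points. Tagln, a smooth muscle and myoepithelial actin-binding protein and the 1 basal marker called higher, gained 30.2 ± 1.86 points (SE, q = 9.98e-10), with 35.7% to 57.6% in PyMT and 12.1% to 23.3% in FVB, while Krt5 (basal keratin) was called lower at early carcinoma alone, at -11.5 points (q = 0.0131). The leukocyte factor Spi1 was called higher at 3 stages (mean 10.1 points). It was the 1 called of 3 leukocyte markers (33.3%, against 1.96% of all), and 1 of the 3 had a mean difference below 0. In the adipocyte list, averaging 5.31% to 7.41% in PyMT and 6.01% to 7.49% in FVB with a median member difference of 0.0224 points, Lep (leptin) was called lower (-12.6 points) and Car3 (an adipocyte carbonic anhydrase) higher at late carcinoma (12.98 points). Of the fibroblast markers 0 were called by limma or by logistic regression of summed reads. The latter used q under 0.01 and the 10-point limit, and took reads rather than mice as units. In limma 1 had an unadjusted p under 0.05 at a stage, namely Fn1 (fibronectin). Its mean difference of 0.822 points had a q of 4.93e-08 in limma but lay under the 10-point limit. The part of cell mix in any promoter's difference was not tested.

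Among functional groups, developmental transcription factors formed the largest list, with 136 core promoters. Of these, 3 were called higher at 1 or more stages and 2 lower (2.21% and 1.47%, near the 1.96% and 1.39% of all promoters). Their median difference was nevertheless 0.0852, 0.333, 0.734 and 1.01 points from hyperplasia to late carcinoma, against -0.0267, 0.0296, 0.0102 and 0.00362 over all core promoters, and 107 of the 136 had a mean difference above 0, against 6085 of 12213. Hoxb1 was the largest gain, 30.5 ± 2.30 points (SE, q = 9.55e-09), with a flank at -8.51 points (q = 3.18e-08), and Hoxa5 the largest loss, -19.2 ± 2.64 points (q = 9.37e-06), falling from 13.4% to 40.9% in FVB to 6.43% to 15.8% in PyMT. Phox2a (a factor of autonomic neurons) had a difference of 0.0249 points at hyperplasia and 10.9 at late carcinoma, and Hoxd1, named after its values were seen, reached 10.4 points there.

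Of 29 promoters of tumor suppressors known to be methylated in human breast cancer, 2 were called (6.90%), both higher at all 4 stages, against 1.96% of all core promoters higher at any stage and 0.401% at all 4. Hic1 (a transcriptional repressor) gained 22.9 ± 1.01 points (SE, q = 3.76e-11) over 81 positions, with 27.5% to 37.6% in PyMT and 6.77% to 13.6% in FVB. Dkk3 (a Wnt pathway regulator) gained 21.8 ± 0.903 points (q = 2.43e-11), with 19.8% to 40.2% in PyMT and 3.77% to 6.80% in FVB. The median of the 29 was 0.00588 points.

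Germline genes, which are normally silenced by promoter methylation outside the germline, were measured at 18 promoters, of which 3 were called higher and 1 lower at 1 or more stages (16.7% and 5.56%, against 1.96% and 1.39% of all). The mean difference lay above 0 at 10 of the 18 and below 0 at 8. Sycp1 (a synaptonemal complex protein, mean 9.78 points) and Ddx4 (a germ cell helicase, 8.99) were already at 64.7% to 75.7% and 71.7% to 87.8% in FVB glands. Zfp42 (a pluripotency factor) was called at hyperplasia alone (21.1 points), and Piwil2 (a piRNA-binding protein) was lower at late carcinoma (-10.1 points). The 13 imprinted genes held 2 promoters called higher (15.4% against 1.96% of all), Nap1l5 at late carcinoma (23.7 points) and Nnat at early carcinoma (15.8). Snrpn was the 1 called lower (7.69% against 1.39% of all), at adenoma/MIN alone. Of 45 ribosomal protein, 10 Polycomb repressive complex 2 subunit and 8 DNA methylation enzyme promoters 0 were called at any stage by limma or by logistic regression of summed reads, and 4, 3 and 1 had an unadjusted p under 0.05 at a stage in limma. Their largest mean differences were 1.01 points at Rpl22, 2.03 at Phf1 and -0.119 at Tet1, of which that at Phf1 had a q of 2.32e-05 in limma, under the 10-point limit.

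Gene groups that the study drew from these same samples were also read at the core promoter, so their direction is not independent evidence. The first pair are Polycomb targets it named, a part of the genes with promoter gains at late carcinoma only or at all stages. There promoters spanned a wider window and were counted by differing single cytosines, whereas here the mean over the core promoter was used. Of 29 measured Polycomb targets of the late carcinoma group, Gabra2 (a GABA receptor subunit) alone was called (3.45%), at 12.7 points at late carcinoma. This and the shares below stand against 1.96% of all core promoters called higher at 1 or more stages. A mean difference above 0 was found in 26 of the 29, against 6085 of 12213 core promoters. Of 38 measured Polycomb targets of the group gaining at all stages, 5 were called at 1 or more stages (13.2%). They were Mab21l1, Esam, Cyp26c1 (a retinoic acid hydroxylase, 22.01 points), Hes7 (a Notch pathway repressor, 13.7) and Tmem88, the last named after its values were seen. The angiogenesis genes were linked by the study to differentially methylated regions, which can lie outside promoters. Of 22 measured, 1 was called (4.55%), Shc1 (an adaptor of receptor kinases, 10.5 points at late carcinoma). The genes of epithelial-mesenchymal transition had promoter cytosines with gains in that wider window and lower expression. Of 17 measured, 1 was called (5.88%), Tagln. These counts do not repeat the study's measures. By logistic regression of summed reads (q under 0.01, reads and not mice as units), 0 of the 29 and 0 of the 22 were called.

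Short sequence motifs were counted in the 300 bases from 250 before to 49 after the TSS, on both strands. The GC box (GGGCGG) was present in 71.1% of all core promoters, 48.1% of those that gained and 25.3% of those that lost. The shares also differed by CpG class, at 75.5%, 57.7% and 28.4% of high, intermediate and low CpG promoters. CCAAT was found in 36.0% of all, 34.3% of gained and 33.5% of lost promoters, and TATAAA in 5.86%, 8.79% and 10.6%. The cyclic AMP response element TGACGTCA was in 3.42% of all promoters, 0.837% of gained and 0.588% of lost, and the AP-1 motif TGACTCA in 2.72%, 2.09% and 6.47%. The ETS motif CCGGAA was in 28.6%, 19.2% and 16.5% and the E box CACGTG in 10.6%, 10.9% and 8.82%. None of these motifs contains another, and none of these shares was tested.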

How the data were processed

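Bismark was used by the authors to map the ERRBS reads of a sample against mm10. The deposited file of a sample gives the read count at every CpG cytosine reached by at least 10 reads, and the percent of these that were methylated or unmethylated. The Bismark version is not given in the sources used here, and the study mapped sites to RefSeq genes of the UCSC genome browser. Strands are listed apart and replicates are not pooled. A sample held 1314077 to 1435757 positions at a mean coverage of 60.2 to 79.2 reads. Groups, weeks and replicate numbers came from the labels.

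From these files, positions on the 19 autosomes present in all 22 samples were assigned to core promoters, flanks (500 to 2000 bp) and 1-kb bins with RefSeq annotation of GRCm38.p6, and averaged without weights. Neighbouring positions can share reads. limma 3.58.1 (R 4.3.3) was fitted to percent methylation with 8 group means and a mean-dependent prior variance. Each mouse was the unit. Permutation tests used Python 3.11.15 with NumPy 2.4.6. In simulated data 200 core promoters were changed by 20 points at every stage and all other regions were left unchanged. The fit recovered 98 to 98.5% of the 200 at a stage and called 0 or 1 unchanged core promoters. In the real data 7294 to 14965 of the 46581 regions had q under 0.05 at a stage. The shared correction was therefore less strict there, and false calls under it were not measured. No change between premalignant and malignant weeks was simulated.

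The promoters, gene lists and tests were chosen with earlier results of these data known. Named promoters were the 12 largest gains and losses called at all stages, up to 6 rises and 6 falls of the premalignant to malignant change, up to 4 called members of each list (or its largest difference), and genes with opposite core and flank calls. For the sequences, promoters with fewer than 3 measured CpGs in the printed 300 bases (Nup210l) were passed over, a condition added after the data were seen. Alternatives were another coverage minimum (20 reads), merged strands, a logit scale, no trend in the prior, read weighting, a 250-bp window, 10 or more positions, thresholds of 5 and 20 points, correction over core promoters alone, fits of single stages, medians, logistic regression of summed reads, a replicate block and leaving out each sample.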

Additional observations from a re-analysis of the deposited data

Results flagged for a closer look

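The change of the PyMT minus FVB difference from premalignant to malignant weeks, an interaction of strain and stage, passed limma's test at 31 core promoters that rose and 2 that fell. The named changes were 26.4 points at Rgs22, 25.61 at Snrpn and Snurf, which share their positions, 21.13 at Npb, 20.51 at Pnma1, 20.02 at Cpt1b, -20.31 at Foxs1 and -12.97 at Slc41a3. All malignant PyMT mice lay beyond all premalignant PyMT mice at 13 of the 31 rises and at both falls. These promoters were called for that change, so this separation is in part set by the choice. Over all core promoters, malignant PyMT mice lay above premalignant ones at 226 (1.85%) and below at 37 (0.303%), and FVB mice of the same weeks at 17 (0.139%) and 11 (0.0901%). The mean over core promoters differed between strains by 0.1985 points in the same contrast (exact permutation p = 0.0489).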

How the results depend on the processing

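Of 675 recomputed counts and sample means, 592 kept their direction and stayed within their limits, 83 did not and 6 of these reversed. For named promoters, 868 of 962 recomputed values kept direction and call, 94 lost the call and 0 reversed; 30 gave no value. The cause of a change was not tested unless the setting itself removes promoters or samples.

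With the median over genes, the PyMT minus FVB difference became -0.00548 points and that of high CpG promoters -0.00697. The median core level minus the median flank level gave -0.141. With medians the malignant minus premalignant change became -0.00928 in PyMT and -0.00086 in FVB, and their difference -0.00841. Read weighting gave that difference as 0.196 (exact permutation p = 0.0567). Without 1 sample it ran from 0.160 to 0.236 (exact p 0.0347 to 0.0892), and the FVB change from 0.0315 to 0.0589, passing only without FVB replicate 1 of week 6 or of week 10. The hyperplasia counts ran from 24 to 64 higher (24 without PyMT replicate 1) and 44 to 90 lower, and falls of the premalignant to malignant change from 0 to 4 (rises 22 to 37). Where 1 mouse remained in a group, it was assumed to vary like the other groups.

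A logit scale left 5 rises and 0 falls, and a minimum of 20 reads left 1 fall. A window of 250 bp gave 46, 64, 75 and 68 promoters lower from hyperplasia to late carcinoma, 64 on average and 1 fall. With 10 or more positions, 31 were higher and 25 lower at hyperplasia, 56 and 35 at adenoma/MIN, 94 and 44 at early carcinoma, 42 lower at late carcinoma, and 72 and 37 on average. A 5-point threshold gave 183 and 168 at adenoma/MIN, 318 and 199 at early carcinoma, 375 higher at late carcinoma, 289 and 221 on average, and 75 rises. A 20-point threshold gave 22 and 36, 41 and 45, 66 and 58, and 86 and 58 by stage, 53 and 45 on average, 6 rises and 1 fall. At hyperplasia, correction over core promoters alone gave 36 higher, and a fit of that stage alone 29 and 32.

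Replicate numbers did not pair the samples: deviations of same-numbered mice correlated from -0.111 to 0.0972, and not every mouse correlated best with its own number. With the replicate block, hyperplasia gave 27 higher and 41 lower, and the change gave 4 rises and 0 falls. No other count moved by over 1.5 times. No call on a PyMT minus FVB difference of sample means changed (mean difference 0.153, exact p = 0.0117). The malignant minus premalignant change of sample means was not recomputed with the block.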
